A study of Homo sapiens with 6 samples.

Results

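The 10 genes described here encode feedback inhibitors of growth-factor signalling and were measured in AGS, an established human gastric adenocarcinoma cell line: the Sprouty genes SPRY1, SPRY2 and SPRY4, the SPRED genes SPRED1 and SPRED2, and the phosphatase genes DUSP1, DUSP4, DUSP5, DUSP6 and DUSP10. They are 10 of 18656 genes measured, and they were chosen by name: a probe set counted for a gene where the platform annotation named that gene alone. That gave 66 of the 224320 probe sets naming 1 gene, from 2 for SPRY1 to 10 each for DUSP4 and DUSP10, and 0 probe sets named 1 of these genes together with another gene. The names were picked with earlier results of the same 6 arrays in view, in which a longer list of feedback genes had been slightly lower with the inhibitor. The differences between inhibitor and control are therefore given as a description of these genes, without a test on them.

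The study asked which messages differ in AGS cells once an antisense oligonucleotide has been given to block miR-25-3p, a microRNA. The control group was 3 arrays of AGS cells given a non-targeting control RNA, and the inhibitor group was 3 arrays of AGS cells given the miR-25-3p inhibitor. Both groups were transfected with oligofectamine, transfected again after 24 h and harvested 48 h after the first transfection, and 500 ng of total RNA was labelled for the Affymetrix Human Gene 1.0 ST array. Untransfected cells were not analysed here, a single cell line stood for gastric cancer, and the mature microRNA was not measured. The labels call the samples of a group biological replicates and do not say whether they were separate cultures set up on different days, so the spread between arrays may be partly technical. In a bulk sample, fewer cells expressing a gene and less RNA per cell cannot be told apart.

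Growth factors activate receptor tyrosine kinases, which load RAS with GTP and start the RAF, MEK and ERK kinase cascade. Active ERK turns on genes whose products shut the pathway down again. Sprouty proteins are phosphorylated at the receptor and interfere with the step from receptor to RAS and RAF, and SPRED proteins bring the RAS GTPase-activating protein neurofibromin to the membrane. DUSPs of the MAP kinase phosphatase family remove phosphate from both the threonine and the tyrosine in the activation loop of ERK, p38 or JNK. In many epithelial cells the levels of these messages follow recent ERK activity.

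The inhibitor was designed against miR-25-3p, and the sequences are shown because an oligonucleotide of this kind pairs with the mature strand, whose seed (bases 2 to 8, in capitals) decides most of its pairing with messages. In the RefSeq table (GRCh38.p14), 6 mature human microRNAs carry this seed, from 7 loci. All 6 are printed 5′ to 3′.
hsa-miR-25-3p: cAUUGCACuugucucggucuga
hsa-miR-92a-3p: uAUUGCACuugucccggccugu
hsa-miR-92b-3p: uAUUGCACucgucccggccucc
hsa-miR-32-5p: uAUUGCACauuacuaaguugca
hsa-miR-367-3p: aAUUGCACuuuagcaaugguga
hsa-miR-363-3p: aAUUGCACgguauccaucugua
miR-25-3p lies at chr7:100093571-100093592 on the minus strand. Outside the seed, miR-92a-3p has the same base as miR-25-3p at 11 of 15 positions and miR-92b-3p at 9, against 6 for miR-32-5p, 5 for miR-367-3p and 2 for miR-363-3p. None of these microRNAs was measured on the arrays as used here, so which of them the cells held or the inhibitor reached was not tested.

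Values are log2 expression as deposited, and a gene's value on an array is the mean of its probe sets. The array medians lay between 6.02 and 6.07. All 7 epithelial markers (EPCAM, KRT8, KRT18, KRT19, CLDN4, CLDN7 and ELF3) lay above 4.22, the level below which 95% of 348 olfactory receptor genes lay in control arrays and which is used here as the silent gene level. Of the endothelial markers 0 of 5 lay above it, of the measured leukocyte markers 3 of 5 and of the fibroblast markers 4 of 6, where LYZ was at 8.84 and COL1A1 at 6.39 in control arrays, while PTPRC, DCN and LUM were at 2.55, 2.56 and 2.28. CD14, a monocyte marker, had a control mean of 4.25 against 4.71 with the inhibitor. The mean of the leukocyte markers was 4.69 to 4.82 in control and 4.85 to 4.96 in inhibitor arrays, that of the fibroblast markers 4.14 to 4.35 and 4.19 to 4.31, and that of the endothelial markers 3.60 to 3.80 and 3.55 to 3.60. Their part in any difference below was not tested. Control replicate 1 stood furthest from the others, with a mean correlation of 0.992 over genes to the rest, where each remaining array had 0.993 to 0.994.

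All 10 genes lay above the silent gene level in control arrays, as did 71.7% of all genes and 3 of the 5 measured leukocyte markers. Without detection calls, lying above this level does not by itself show that a message was present. SPRED1 at 8.19 ± 0.19 (SD, n = 3) and SPRED2 at 8.12 ± 0.076 (SD, n = 3) had the highest values, and DUSP5 at 5.42 ± 0.22 (SD, n = 3) and DUSP10 at 5.46 ± 0.32 (SD, n = 3) the lowest. Probe sets differ in how well they bind their target, so these levels do not rank the genes by amount of message. The low means of DUSP5 and DUSP10 came with many dim probe sets: 4 of 7 for DUSP5 and 3 of 10 for DUSP10 were not above the silent gene level. The brightest probe set of DUSP5 was nevertheless at 9.96 in control arrays.

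Most of the 10 genes were slightly lower in the inhibitor arrays. The difference (inhibitor minus control) was negative for 8 of 10 genes, with a median of -0.079 on the log2 scale, where 49.5% of all genes were negative and their median was 0.0021. SPRY2 and DUSP1 were the members whose 3 inhibitor arrays all lay below the 3 control arrays, 2 of 10 genes, where 7.68% of all genes did so and 12.9% were separated in either direction. No gene of the 18656 passed limma's adjusted p of 0.05 (0 called, 0%), with a smallest adjusted p of 0.79 and 1141 genes (6.12%) at an unadjusted p under 0.05. Nothing is read from these shares for the 10 genes, since the same contrast had a part in choosing them. The mean over the 10 genes was 6.88, 6.98 and 6.96 in control replicates 1 to 3 and 6.85, 6.85 and 6.80 in inhibitor replicates 1 to 3. The lowest control array, replicate 1, was 0.023 above the highest inhibitor array. That gap rests on SPRY2, whose own value rests on 1 probe set (below), and without SPRY2 the groups overlap. The mean over the 5 DUSP genes overlapped between groups. It was 6.54, 6.63 and 6.58 in control and 6.48, 6.59 and 6.52 in inhibitor replicates 1 to 3.

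**Figure D1:**
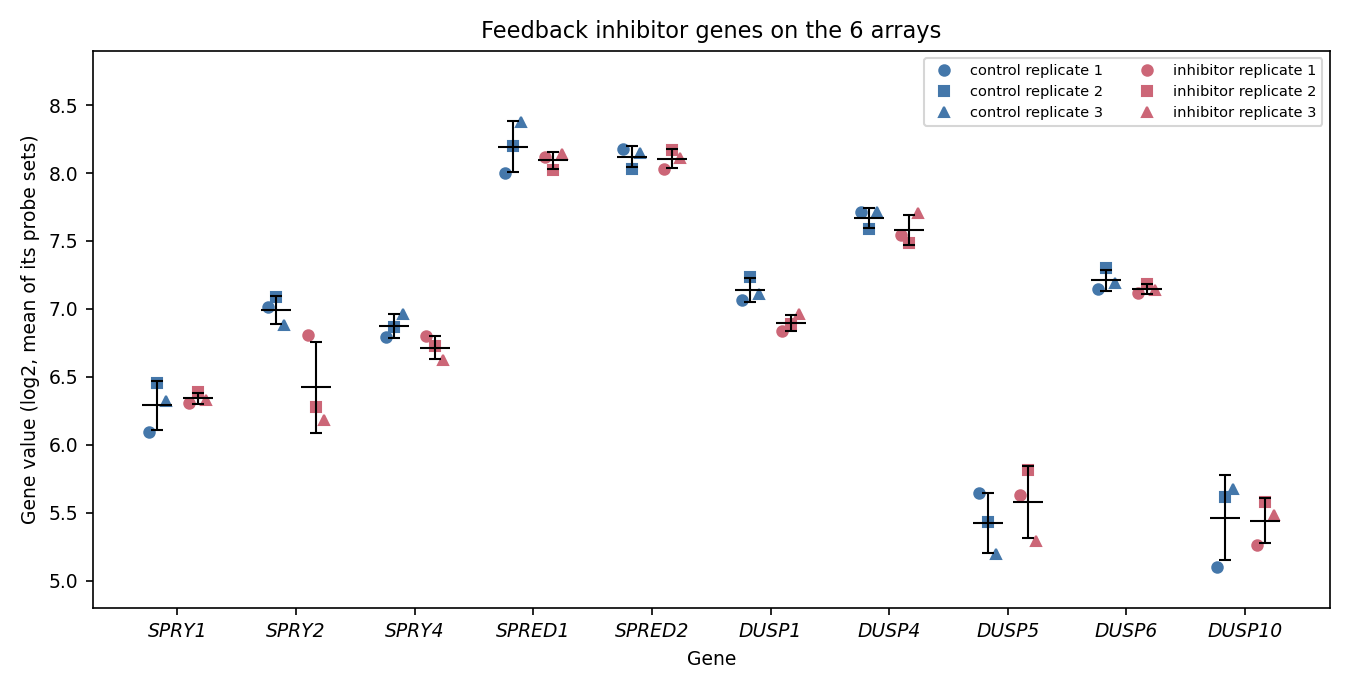
Gene values (log2, vertical axis) of the 10 genes (horizontal axis) on the 3 control arrays (blue) and 3 inhibitor arrays (red), with a marker shape for each replicate; horizontal bars are group means and error bars SDs. The groups separate for SPRY2 and DUSP1, where every inhibitor array is lower, and overlap for the other 8 genes.

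SPRY2, which is phosphorylated after growth-factor stimulation and binds the ubiquitin ligase CBL, had the largest difference of the 10. It was at 7.02, 7.09 and 6.88 in control replicates 1 to 3 and at 6.81, 6.28 and 6.19 in inhibitor replicates 1 to 3. All inhibitor arrays were below all control arrays, and inhibitor replicate 1 lay close to the controls. The group means were 6.99 ± 0.10 (SD, n = 3) and 6.42 ± 0.33 (SD, n = 3), a difference of -0.57 (SE 0.16), which is 67.3% of the control level on a linear scale. In 0.177% of all genes the difference was lower than this.

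That SPRY2 value rests on 1 of its 4 probe sets. Probe set 7972220 read 5.19, 5.82 and 4.89 in control and 4.61, 3.62 and 1.90 in inhibitor arrays, a difference of -1.92 (SE 0.69). It is the dimmest of the 4, and in inhibitor replicates 2 and 3 it was under the silent gene level of 4.22. The brightest, 7972221, read 8.58, 8.63 and 8.88 in control and 8.43, 8.53 and 8.66 in inhibitor arrays, a difference of -0.16 (SE 0.15) with overlapping groups. The other two, 7972218 and 7972219, had differences of -0.053 (SE 0.13) and -0.15 (SE 0.37). All 4 were thus negative, but without probe set 7972220 the gene difference was -0.12 (SE 0.13), and with the median of probe sets it was -0.10. The spread of the SPRY2 gene value between replicates, a residual SD of 0.25, was larger than that of 96.0% of the 500 genes nearest in level.

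SPRY4, the Sprouty gene that is often used as a readout of ERK and FGF signalling, was at 6.79, 6.87 and 6.97 in control and 6.80, 6.72 and 6.62 in inhibitor replicates 1 to 3. The groups met at control replicate 1 and inhibitor replicate 1 and were otherwise apart. The difference was -0.16 (SE 0.093), or 89.5% of control. Of its 7 probe sets 5 were negative, the brightest (8114804) with 8.34, 8.37 and 8.35 in control and 8.30, 8.20 and 7.97 in inhibitor arrays. That probe set and 8114800, at -0.45 (SE 0.20), were the pair whose arrays did not overlap, while 8114799 at 0.31 (SE 0.57) and 8114802 at 0.21 (SE 0.18) went the other way. Leaving out any 1 array kept the SPRY4 difference between -0.20 and -0.11.

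SPRY1, which inhibits signalling from FGF and GDNF receptors, showed no separation of groups. It was at 6.10, 6.46 and 6.32 in control and 6.31, 6.39 and 6.33 in inhibitor arrays, so the inhibitor arrays all fell inside the control range. The difference was 0.052 (SE 0.11). Both of its probe sets were positive, at 0.063 (SE 0.17) and 0.040 (SE 0.14), and without control replicate 1, its lowest array, the difference was -0.046. The 3 Sprouty genes thus did not share a direction.

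The SPRED genes overlapped between groups. SPRED1, the gene mutated in Legius syndrome, was at 8.003, 8.20 and 8.38 in control and 8.12, 8.02 and 8.14 in inhibitor arrays, a difference of -0.10 (SE 0.11). Control replicate 1 was the lowest of all 6 arrays for SPRED1 and control replicate 3 the highest. The difference was -0.19 without the former and -0.0070 without the latter. Of its 9 probe sets 7 were negative, including the brightest (7982567) at -0.30 (SE 0.18), for which 9.46, 9.69 and 9.53 in control stood against 9.37, 8.96 and 9.44 in inhibitor arrays. With the median of probe sets the difference was 0.013. SPRED2, a related inhibitor of RAF activation, was at 8.18, 8.03 and 8.15 in control and 8.03, 8.17 and 8.11 in inhibitor arrays, a difference of -0.015 (SE 0.090) with 4 of 6 probe sets negative. The ranges of SPRED2 in the 2 groups nearly coincided.

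DUSP1, an immediate-early phosphatase of the nucleus that acts on p38 and JNK and also on ERK, was lower on every inhibitor array. It was at 7.07, 7.24 and 7.11 in control and 6.84, 6.89 and 6.96 in inhibitor replicates 1 to 3. All inhibitor arrays were below all control arrays, with a gap of 0.11 between the groups. The means were 7.14 ± 0.087 (SD, n = 3) and 6.90 ± 0.062 (SD, n = 3), a difference of -0.24 (SE 0.090), or 84.7% of control. In 3.86% of all genes the difference was lower.

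The 4 DUSP1 probe sets were all negative, at -0.42 (SE 0.14), -0.26 (SE 0.16), -0.25 (SE 0.15) and -0.033 (SE 0.16). Probe set 8115832, with the largest difference, read 7.74, 7.67 and 7.58 in control and 7.23, 7.36 and 7.15 in inhibitor arrays. Probe set 8115834 was separated too, and the other pair overlapped. The DUSP1 difference stayed negative under each of 13 other settings of the analysis, between -0.27 and -0.19. All of these settings re-use the same arrays, so they are not independent checks. The replicate block and the filter on dim genes could not change the difference, and the filter on dim probe sets left it at -0.24. Without 8115832, the one furthest from 0, it was -0.18 (SE 0.10), but the arrays of the groups then overlapped, so the separation of DUSP1 rests on that probe set.

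The promoter of DUSP1 is shown because it holds letters of the cAMP response element, an element of signal-driven transcription, before the start site. All DUSP1 probe sets were negative, but so were those of SPRY2, and a link between promoter letters and the difference was not tested. The stretch below (RefSeq, GRCh38.p14, chr5:172771210-172771434, minus strand) runs from 239 to 15 bases before the start site, 5′ to 3′. Capitals mark the letters TGACGTC (cAMP response element, CRE), GGGCGGG (the GC box) and TATAAA (the TATA box), searched on both strands.
DUSP1 promoter: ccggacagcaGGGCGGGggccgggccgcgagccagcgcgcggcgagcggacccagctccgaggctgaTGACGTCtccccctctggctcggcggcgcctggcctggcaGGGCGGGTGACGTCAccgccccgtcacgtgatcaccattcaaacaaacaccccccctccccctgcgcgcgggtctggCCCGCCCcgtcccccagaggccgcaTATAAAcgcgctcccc
The second CRE reads the same on both strands and is therefore matched at both 125 and 124 bases before the start, and it directly follows a GC box. The first CRE lies 172 bases before the start and the TATA box 30.

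Promoter windows (250 bases before to 50 after a start site) were in the RefSeq table for 8 of the 10 genes, 13 windows in all, since some genes have several start sites. DUSP4 and DUSP5 had none there. The CRE letters occurred in 2 of 13 windows, those of DUSP1 and SPRED2, against 3.45% of all 35116 windows. The SPRED2 match lies after the start site, in another window than the SPRED2 matches named next. The AP-1 letters TGANTCA occurred in 1 of 13 windows (SPRED2, 7.71% of all windows) and the ETS letters CCGGAAG in 1 (SPRY1, 10.3%). The TATA box occurred in 2 (DUSP1 and SPRED2, 11.5%) and the CArG box in 0 (1.29%). The GC box occurred for DUSP1, DUSP10, SPRY1 and SPRY2, in 5 of 13 windows against 33.1% of all windows. No motif was held by all 8 genes, and a match of letters is a description of the sequence and not of binding.

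DUSP6, the cytoplasmic phosphatase specific for ERK, had a gene difference nearer 0 than that of its brightest probe set. It was at 7.15, 7.30 and 7.19 in control and 7.12, 7.18 and 7.14 in inhibitor arrays, a difference of -0.067 (SE 0.086) with overlapping groups, and -0.024 without control replicate 2. The brightest of its 7 probe sets, 7965338, read 9.63, 9.32 and 9.48 in control and 9.19, 9.13 and 9.25 in inhibitor arrays, a difference of -0.29 (SE 0.15) without overlap. Probe set 7965339 was separated as well, at -0.23 (SE 0.13).

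The dimmest DUSP6 probe set, 7965342, pulled the gene mean up. It read 3.12, 3.54 and 2.88 in control and 3.96, 4.11 and 4.01 in inhibitor arrays, a difference of 0.85 (SE 0.20), and all 6 values were under the silent gene level of 4.22. Without it, the DUSP6 difference was -0.22 (SE 0.081). That value includes probe set 7965341, which had the most negative difference, at -0.62 (SE 0.32). Its arrays overlapped, with 6.11, 6.36 and 6.42 in control and 5.82, 6.19 and 5.02 in inhibitor arrays. Probe set 7965337 was positive at 0.060 (SE 0.20). The opposite thus held for SPRY2 and DUSP6: dropping the probe set furthest from 0 shrank the SPRY2 difference and enlarged that of DUSP6.

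**Figure D2:**
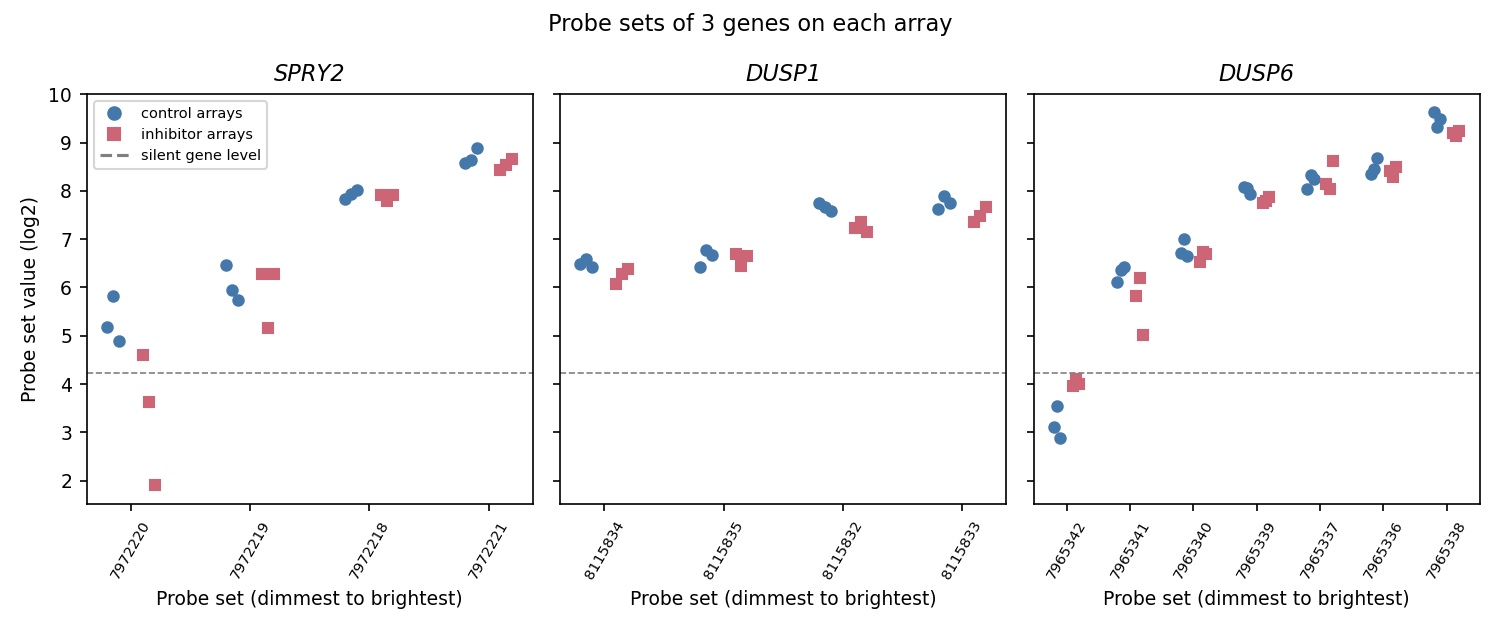
Values (log2, vertical axis) of each probe set of SPRY2, DUSP1 and DUSP6, ordered from dimmest to brightest (horizontal axis), on control arrays (blue circles) and inhibitor arrays (red squares); the dashed line is the silent gene level of 4.22. The wide gap in SPRY2 is at its dimmest probe set, and the dimmest probe set of DUSP6 goes against 5 of its 6 brighter ones.

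DUSP4, a nuclear phosphatase induced by ERK, was at 7.72, 7.59 and 7.71 in control and 7.55, 7.49 and 7.71 in inhibitor arrays, a difference of -0.091 (SE 0.096). Inhibitor replicate 3 lay within the control range and the other two inhibitor arrays below it, and leaving out 1 array gave -0.15 to -0.045. Of its 10 probe sets 8 were negative, among them the brightest, 8150078, at 10.05, 9.87 and 9.98 in control against 9.47, 9.74 and 9.82 in inhibitor arrays (-0.29, SE 0.16). Probe set 8150084 was also separated, at -0.27 (SE 0.13). The largest positive value, 0.44 (SE 0.51), came from the single DUSP4 probe set that was not above the silent gene level.

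DUSP5, a nuclear phosphatase specific for ERK, was the member with the most positive difference. It was at 5.64, 5.43 and 5.20 in control and 5.63, 5.81 and 5.29 in inhibitor arrays, a difference of 0.16 (SE 0.16) with overlapping groups. It was 0.040 without inhibitor replicate 2, 0.043 without control replicate 3, 0.27 without control replicate 1 and 0.30 without inhibitor replicate 3. Its brightest probe set, 7930415, read 10.04, 10.15 and 9.69 in control and 9.91, 10.13 and 9.87 in inhibitor arrays, a difference of 0.010 (SE 0.18). The positive DUSP5 value therefore came from dimmer probe sets, such as 7930416 at 0.36 (SE 0.25) and 7930419 at 0.43 (SE 0.26), the latter not above the silent gene level.

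DUSP10, a phosphatase that acts on p38 and JNK rather than ERK, was at 5.10, 5.62 and 5.67 in control and 5.26, 5.58 and 5.48 in inhibitor arrays, a difference of -0.022 (SE 0.16). Control replicate 1 was the lowest array, and without it the difference was -0.20. Of its 10 probe sets 6 were negative, and they ranged from -0.54 to 1.25, the widest range after SPRY2. The extreme, 7924451, read 2.77, 4.73 and 4.69 in control and 4.53, 5.55 and 5.86 in inhibitor arrays. The brightest, 7924454, had -0.22 (SE 0.21). The sign of DUSP10 turned in 5 of 13 other settings.

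Across all 66 probe sets of the 10 genes, 45 were negative and 21 positive, or 68.2% negative against 50.3% of all probe sets. The bright and dim ones differed: of the 57 above the silent gene level in control arrays 43 were negative, and of the other 9, 7 were positive. Sorting by control arrays alone favours this pattern, and over all probe sets 52.1% of the bright and 45.5% of the dim ones were negative. With the level taken from all 6 arrays, which removes that preference, 43 of 58 bright and 2 of 8 dim probe sets of the 10 genes were negative, against 50.4% and 49.7% of all. Groups were separated downward for 11 of the 66 probe sets and upward for 1, where 6.32% and 5.89% of all probe sets were. These probe sets share genes and arrays and are not independent, and limma called 0 of all 224320 probe sets (0%), with 13921 (6.21%) at an unadjusted p under 0.05.

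**Figure D3:**
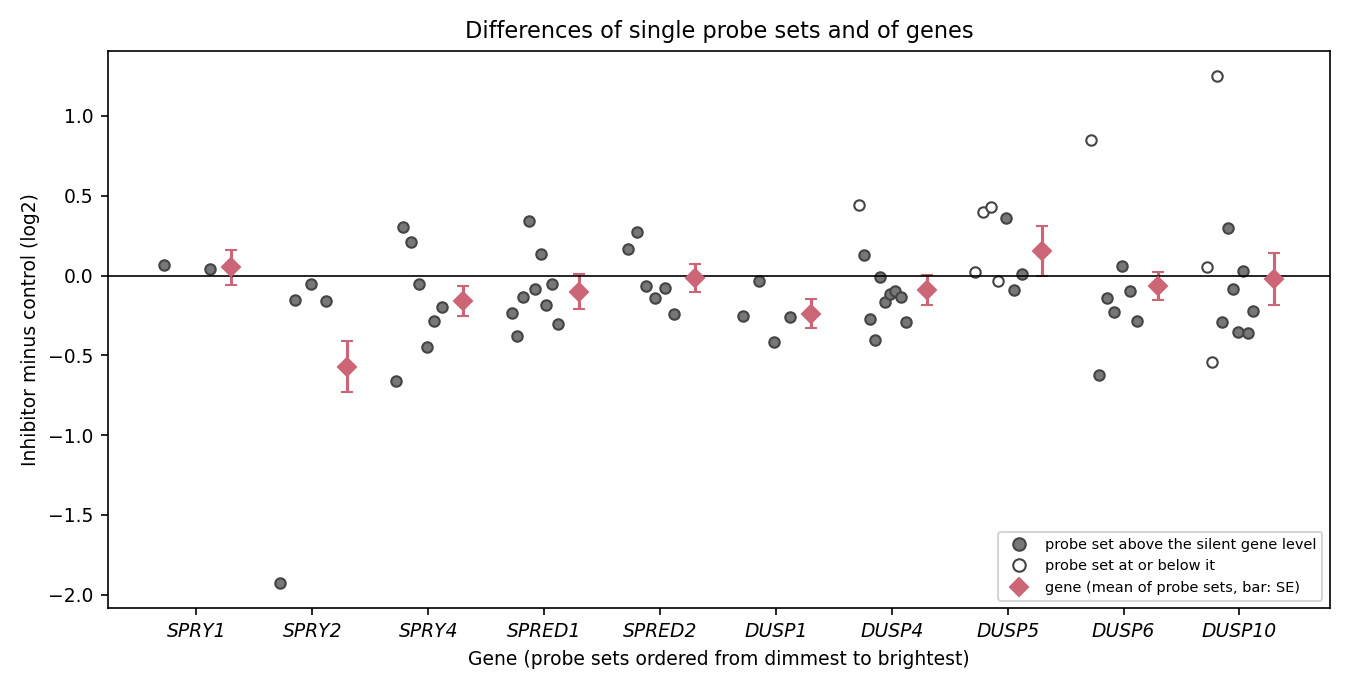
Inhibitor minus control (log2, vertical axis) of every probe set of the 10 genes, ordered within a gene from dimmest to brightest (circles, open where at or below the silent gene level), and of the gene mean (red diamonds, bars: SE). The lowest circle is the SPRY2 probe set at -1.92, and open circles hold the most positive values of DUSP4, DUSP5, DUSP6 and DUSP10. Circles are open by control arrays alone, which favours positive values among them. By the mean over all 6 arrays, the DUSP10 probe set at 1.25 lies above the silent gene level.

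Taking 1 brightest probe set per gene, by its mean over all arrays, 8 of 10 genes were again negative, and the median was -0.23 against -0.0033 over all genes. With this choice the differences were -0.16 for SPRY2, -0.20 for SPRY4, -0.30 for SPRED1, -0.24 for SPRED2, -0.26 for DUSP1, -0.29 for DUSP4, -0.29 for DUSP6 and -0.22 for DUSP10, with 0.063 for SPRY1 and 0.010 for DUSP5. The 8 negative values lay between -0.30 and -0.16, but their SEs were 0.11 to 0.19, so whether these genes differ by a like amount cannot be told. SPRY2 no longer stood apart. Arrays were then separated for SPRY4, SPRED1, DUSP4 and DUSP6, 4 of 10 genes where 12.2% of all genes were, and for neither SPRY2 nor DUSP1. Limma called 0 of all genes with the brightest probe sets too, with a smallest adjusted p of 0.052.

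The replicate spread differed between the genes. The residual SD was 0.060 for DUSP6, 0.073 for SPRED2, 0.076 for DUSP1, 0.086 for SPRY4 and 0.095 for DUSP4, each lower than in most of the 500 genes nearest in level. It was 0.13 for SPRY1 and 0.14 for SPRED1, larger than in 50% and 73.8% of the genes nearest to each in level. It was 0.24 for DUSP5 and 0.25 for DUSP10, larger than in 86.0% and 86.8% of such genes, and both of these have dim probe sets. Deviations from the group means over the 6 arrays did not follow one pattern: of 45 pairs of genes 20 correlated positively, with a median r of -0.068. The range ran from -0.82 for SPRED1 with DUSP5 to 0.90 for SPRY1 with DUSP6. These correlations share the same 6 arrays with 4 degrees of freedom and are given as a description.

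The genes most like SPRY2 over the 6 arrays, among 11964 genes with at least 4 probe sets and a control mean above the silent gene level, were BICD2 (r = 0.997), CBLC (0.988) and TMEM134 (0.986). For DUSP10, the member with the largest residual SD, they were MBOAT1 (0.997), PSAT1 (0.993) and NCAPD3 (0.990). With 6 arrays and this many genes such values are common: 38 genes exceeded 0.95 with SPRY2 and 36 with DUSP10.

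Other genes of the pathway were read from 7 lists, of which 70 of 76 genes were measured (6 of the RAS, RAF, MEK and ERK list were not analysed here). Limma called 0 of the 70, with a smallest adjusted p of 0.79 and 4 at an unadjusted p under 0.05, against 6.12% of all genes. Of the 70, 48 were negative, with a median of -0.065. Separation of arrays was downward for 13 and upward for 1, where 7.68% and 5.19% of all genes were. None of these genes had an adjusted p that passed, so the values that follow are descriptions.

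The nearest relatives had negative values, some of them near 0. Of the other typical MAP kinase phosphatases all 5 were negative, with a median of -0.15, from DUSP8, which acts on JNK and p38, at -0.30 (SE 0.16) to DUSP2 at -0.026 (SE 0.10). Between them lay DUSP16, another JNK phosphatase, at -0.15 (SE 0.098), DUSP9 at -0.15 (SE 0.14) and the ERK phosphatase DUSP7 at -0.093 (SE 0.082), the last the only one of the 5 without overlap of arrays. SPRED3 was at -0.066 (SE 0.10) and SPRY3 at -0.013 (SE 0.26). The atypical DUSPs, which lack the MAP kinase-binding domain, did not lean the same way: 4 of 10 were negative with a median of 0.040, from DUSP14 at -0.25 (SE 0.12) to DUSP19 at 0.14 (SE 0.21), with DUSP12, at 0.097 (SE 0.13), having the most positive evidence. Limma's adjusted p was at least 0.79 for each.

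Upstream of the inhibitors, 10 of 17 receptors and adaptors were negative, with a median of -0.050. The extremes by evidence were the receptor ERBB2 at -0.28 (SE 0.089, 27 of 33 probe sets negative) and the phosphatase PTPN11 at 0.27 (SE 0.10). PTPN11 carries the signal from receptors to RAS, and only 8 of its 13 probe sets were positive. Both were without overlap of arrays and had a limma adjusted p of 0.79. In this list arrays were separated downward for 3 genes and upward for 1, where 7.68% and 5.19% of all genes were. In the cascade itself 6 of 8 measured genes were negative, with a median of -0.082 and differences up to 0.23. The extremes by evidence were the kinase ARAF at -0.20 (SE 0.084) and NF1, which encodes the SPRED partner neurofibromin, at 0.18 (SE 0.10, 47 of 58 probe sets positive). The p38 and JNK cascade list holds the p38 and JNK genes, whose products DUSP1, DUSP10 and DUSP16 dephosphorylate, and MAP2K genes for the kinases upstream of them. Of this list 6 of 10 were negative with a median of -0.049, from MAP2K3 at -0.17 (SE 0.094) to MAPK9 at 0.12 (SE 0.10).

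Other genes that ERK induces were negative for 15 of 18, with a median of -0.092, where 49.5% of all genes were negative with a median of 0.0021. This list was chosen with earlier results of these data known, so nothing is read from these shares. EGR1 at -0.047 (SE 0.13), MYC at -0.016 (SE 0.091), FOS at 0.036 (SE 0.089) and PHLDA1 at 0.023 (SE 0.14), also named after their values were seen, had overlapping arrays. Separation of arrays was downward for 6 of them, JUN, CCND1, EPHA2, ETV4, ERRFI1 and LRIG1, named here after their values were seen, and upward for 0, where 7.68% and 5.19% of all genes were separated. The AP-1 subunit JUN had the most negative evidence at -0.20 (SE 0.087, 5 of 5 probe sets negative) and the immediate-early gene IER2 the most positive at 0.047 (SE 0.10). The smallest limma adjusted p in the list was 0.79, and 1 of the 18 had an unadjusted p under 0.05.

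**Figure D4:**
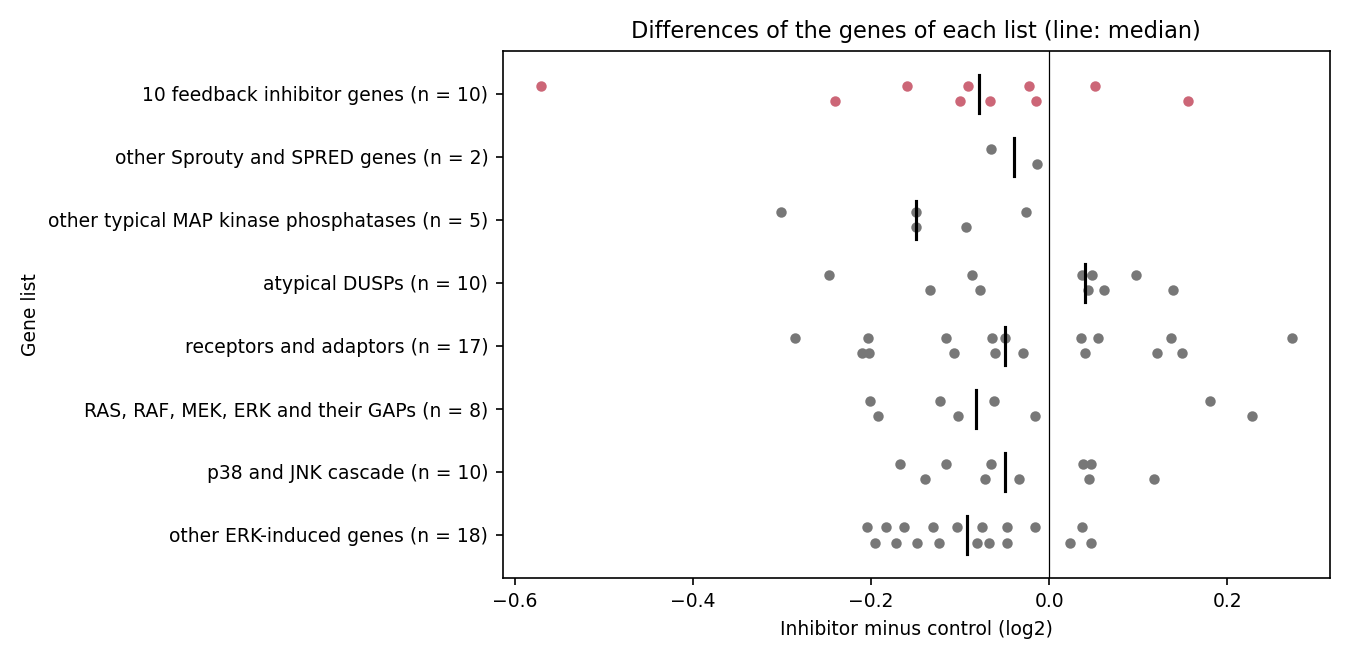
Inhibitor minus control (log2, horizontal axis) of each gene of the 10 feedback inhibitors (red) and of the 7 pathway lists (grey), with the median of each list as a black line. SPRY2 at -0.57 lies apart on the left, the other typical MAP kinase phosphatases are all below 0, and the medians of the other lists lie between -0.092 and 0.040.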

How the data were processed

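The deposited table holds log2 values of 257430 probe sets on 6 arrays, with replicates not pooled. Per the submitters' processing notes, the tools were Affymetrix Expression Console, Transcriptome Analysis Console and the RMA method, with versions and settings not given in the sources used here. RMA brings arrays to nearly 1 distribution, so a shift common to most genes cannot be seen. Symbols from the platform annotation were updated through the RefSeq gene table (2533 of 18701), and the gene value is the mean over probe sets naming that gene alone, without a filter on dim genes. Groups were compared with limma 3.58.1 (R 4.3.3; lmFit, eBayes, Benjamini-Hochberg over all genes or probe sets), which gives the SEs; the fit was tested on simulated data. Alternatives covered the replicate block, each array left out, 2 normalizations, ways of combining probe sets, a filter on dim genes and the variance estimate. Named were the 10 genes, the extremes of each list by evidence (moderated t) and the 3 genes most like SPRY2 and DUSP10, along with genes said to be named after their values were seen and the remaining typical phosphatases. The members and lists were chosen with earlier results of these data known. The annotation names no genome build, so no probe set positions are given. The number of arrays limits the precision.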

Additional observations from a re-analysis of the deposited data

How the results depend on the processing

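Calls were counted under each setting except that without the probe set with the largest difference. Limma called 0 genes under each of them, except 1 gene without control replicate 3 (0 to 1 when 1 array was left out). Among pathway genes there were 0 calls under all settings counted, and among single probe sets 0 calls with the block or without the dimmest 30%. The replicate block cannot change a difference here, since each block holds 1 array of each group. It changed the SEs, from 0.16 to 0.11 for DUSP5, from 0.16 to 0.10 for DUSP10 and from 0.093 to 0.102 for SPRY4. With it there were 0 calls and 1161 genes at an unadjusted p under 0.05. Same-numbered arrays correlated in their deviations from the group means at -0.032, -0.040 and 0.17, while the best match of control replicate 1 was inhibitor replicate 2 (0.21). With 3 arrays per group these linked correlations cannot decide whether arrays were paired. The arrays were treated as unpaired because the labels do not state a pairing. The count of negative members was 6 to 8 of 10 under all alternatives. All 10 stayed above the silent gene level with the 2 other levels tried, which had to hold since both were lower, at 2.645 and 3.05. The median member difference became -0.23 with the brightest probe set, where that of all genes was -0.0033. With probe sets above the silent gene level it was -0.15, but these were kept by control arrays alone, which favours negative differences. Over all genes 55.1% were then negative, with a median of -0.018. Leaving out arrays, the median member difference was -0.15 to -0.039. The lowest was without control replicate 1 and the one nearest 0 without control replicate 3. Members without overlap of arrays numbered 4 with the brightest probe set, where 12.2% of all genes were separated. They numbered 4 with probe sets above the silent gene level, where 13.9% of all genes were. Leaving out arrays they numbered 2 to 6, the 6 without control replicate 1, where 24.8% of all genes were separated. SPRY2 was -0.12 without the dimmest 30% of probe sets, and DUSP6 -0.21 with the median of probe sets. The sign turned for SPRED2 without control replicate 1 or inhibitor replicate 1 (up to 0.021). The cause was not tested. Leaving out the probe set with the largest difference and keeping only probe sets above the silent gene level were chosen after seeing the data. The table gives no detection calls, which limits what can be said of dim probe sets.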
